A study of Mus musculus with 8 samples.

Results

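The Hvcn1 gene and 9 genes that lie beside it on mouse chromosome 5 were examined in the hearts of HVCN1 null mice. The 10 genes were chosen by position and by name, within about 1 Mb of GRCm38, with earlier results of these data known. They are Hvcn1, Ppp1cc, Tctn1, Pptc7, Vps29, Arpc3, Anapc7, Ift81, P2rx7 and P2rx4. They are 10 of the 39056 genes in the deposited counts, and all 10 were kept for the test. The question was how far along the chromosome the loss of the Hvcn1 transcript went with changed transcripts of other genes.

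RNA of heart samples from 4 HVCN1 null mice (hearts 1 to 4) and 4 WT mice (hearts 5 to 8) was sequenced, with 1 library per heart. Per the methods of the study, all mice were males, 3 months old, on a C57BL/6 background. How the null allele was made is not given in the sources used here. The labels call both the gene and the channel Hv1, name no treatment besides the knockout, and give no batch.

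HVCN1 is a voltage-gated proton channel that lets acid leave a cell when its membrane is depolarised, and it is best known from phagocytes, where it balances the charge moved by NADPH oxidases. The genes beside Hvcn1 have other functions. They encode a catalytic subunit of protein phosphatase 1 (Ppp1cc), a protein of the ciliary transition zone (Tctn1), a mitochondrial phosphatase (Pptc7), a subunit of the retromer coat of endosomes (Vps29), subunits of the actin-branching Arp2/3 complex (Arpc3) and of the anaphase-promoting ubiquitin ligase (Anapc7), a carrier of tubulin into cilia (Ift81), and a pair of ATP-gated cation channels (P2rx4 and P2rx7).

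The stretches in front of their start sites show how these genes differ as neighbours. A promoter entry from RefSeq on GRCm38.p6 was found for 8 of the 10 genes, with 9 entries in all. The 4 stretches below were chosen by position. They belong to the genes on either side of Hvcn1, to the head-to-head pair with a listed gene, and to the gene next to Ift81. They are given 5′ to 3′ on the strand of the gene, in the reference sequence and not as read in these hearts. Capitals mark the letters GGCGGG on either strand, the core of a GC box.
Ppp1cc (chr5:122158025-122158274, + strand): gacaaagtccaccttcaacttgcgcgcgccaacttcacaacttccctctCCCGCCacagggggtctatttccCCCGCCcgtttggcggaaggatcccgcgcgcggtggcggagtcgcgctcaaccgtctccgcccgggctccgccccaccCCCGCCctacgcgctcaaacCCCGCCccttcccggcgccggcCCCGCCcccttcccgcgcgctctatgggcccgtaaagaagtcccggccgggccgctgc
Tctn1 (chr5:122264461-122264710, − strand): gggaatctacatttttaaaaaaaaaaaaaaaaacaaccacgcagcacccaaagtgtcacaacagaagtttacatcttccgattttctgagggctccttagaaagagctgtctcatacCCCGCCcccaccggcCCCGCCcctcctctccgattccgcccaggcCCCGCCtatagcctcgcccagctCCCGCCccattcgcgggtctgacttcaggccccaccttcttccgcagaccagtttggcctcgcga
Rad9b to Vps29 (chr5:122354206-122354327, + strand): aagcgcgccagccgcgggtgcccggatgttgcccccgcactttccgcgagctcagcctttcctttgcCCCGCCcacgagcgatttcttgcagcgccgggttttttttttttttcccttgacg
P2rx7 (chr5:122643677-122643926, + strand): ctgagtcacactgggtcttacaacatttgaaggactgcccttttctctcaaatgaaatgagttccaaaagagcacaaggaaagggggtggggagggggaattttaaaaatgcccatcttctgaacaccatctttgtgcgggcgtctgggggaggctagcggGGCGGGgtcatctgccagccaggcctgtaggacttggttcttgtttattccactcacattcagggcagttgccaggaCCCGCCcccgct

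The first pair are CpG-rich stretches, as is usual for genes that most cells express. The observed number of CpG dinucleotides over that expected from the base composition was 1.11 in Ppp1cc and 0.88 in Tctn1, against a median of 0.37 over the 32851 promoters of the table. It was 0.91 in Pptc7, 0.97 in Vps29, 1.04 in Arpc3 and 0.97 in Anapc7. The stretch between the RefSeq starts of Rad9b and Vps29, which are read in opposite directions, had a value of 1.25. P2rx4 had 0.64, and the 2 entries of P2rx7 had 0.34 and 0.26, near the median. The letters GGCGGG were held 5 times by the Ppp1cc stretch, 4 times by Tctn1, 3 times by Pptc7, once by Vps29 and 2 times by the P2rx7 entry printed above, and 32.5% of all promoters hold them. The Arpc3, Anapc7 and P2rx4 stretches and the other P2rx7 entry did not hold these letters. Hvcn1 and Ift81 have no entry in the table.

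Total counts per heart ran from 25851255 to 36396297 in HVCN1 null hearts and from 32595114 to 38874640 in WT hearts. Values below are CPM, the counts of a gene per 1000000 counts of a library whose size was scaled by edgeR's TMM method. Log2 fold changes compare HVCN1 null with WT hearts and come from edgeR's quasi-likelihood test over 14796 genes. Values above 0 mean more transcript in HVCN1 null hearts, and a DEG is a gene with a Benjamini-Hochberg adjusted p under 0.05 over all of these. The 9 cardiomyocyte markers were all measured and summed to between 58600 and 71670 CPM in HVCN1 null hearts and between 59820 and 72280 CPM in WT hearts.

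Hvcn1 (ENSMUSG00000064267, chromosome 5, 122206804 to 122242297, + strand) was nearly absent from HVCN1 null hearts. It had 6, 6, 1 and 3 counts in HVCN1 null hearts 1 to 4, and 102, 49, 99 and 68 counts in WT hearts 5 to 8. The lowest WT heart was far above the highest HVCN1 null heart, so every heart matched its label. Mean CPM was 0.116 ± 0.0662 in HVCN1 null hearts and 2.25 ± 0.513 in WT hearts (SD over 4 hearts per group), a log2 fold change of -4.20 (SE 0.38, 95% interval -5.04 to -3.35, edgeR quasi-likelihood adjusted p = 0.000363). Summed over hearts and divided by the summed scaled library sizes, the 16 counts of the HVCN1 null hearts were 5.29% of the level given by the 318 counts of the WT hearts, and the exact 95% interval of this share, for counting error alone, was 2.99% to 8.73%. Counts per gene do not say in which exons the 16 counts lay.

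Hvcn1 was also the weakest of the 10 genes in the WT heart. Per kilobase of annotated exon its mean WT level was 0.632 CPM, below Tctn1 with 1.01 and P2rx7 with 1.09. P2rx4 had 3.42 CPM per kilobase, Vps29 4.29, Ift81 6.08 and Anapc7 6.35. Ppp1cc with 17.4, Arpc3 with 21.4 and Pptc7 with 29.4 CPM per kilobase were the strongest. Exons of all annotated transcripts were joined for these lengths, so the order depends on the annotation as well as on the RNA.

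The transcript that Hvcn1 expression followed most closely among tested genes was that of the pseudogene Gm1966 on chromosome 7, with a Pearson r of 0.982 between log2 CPM values over 8 hearts. Gm3511, Gm14023, AU041133 and Gm26660 came next, with r of 0.974, 0.969, 0.966 and 0.963. The pseudogene Gm3511 also lies on chromosome 5, within 10 Mb of Hvcn1 toward lower coordinates. It had a log2 fold change of -0.87 and was not a DEG. Gm14023, AU041133 and Gm26660 lie on chromosomes 2, 10 and 14. In these 5 genes, as in Hvcn1, all HVCN1 null hearts lay below all WT hearts, so r reflects the split by genotype, and the hearts share the scaling of their libraries. None of the 9 neighbours was among them.

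Markers of blood cells that can carry HVCN1 were looked at beside this result. All 12 macrophage markers were lower by value in HVCN1 null hearts (median log2 fold change -0.31), and they summed to 335 to 428 CPM there and to 397 to 577 CPM in WT hearts. None of these 12 was a DEG and none was at 0. Of the 8 B cell markers 6 were higher and 2 lower by value, and their sums of 3.53 to 26.4 CPM in HVCN1 null hearts and 6.65 to 20.8 CPM in WT hearts overlapped, with none at 0. Among 5 tested neutrophil markers 4 were lower by value (median -0.49). In RNA of heart tissue fewer cells of a type and less RNA per cell cannot be told apart. The part of these markers in the level of Hvcn1 was not tested.

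Of the 9 neighbours, only Ift81 was a DEG. The share of DEGs over all tested genes was 1.14%, with 0.743% higher and 0.399% lower in HVCN1 null hearts. The groups did not overlap for 1 neighbour, again Ift81, against 7.06% of all tested genes (3.6% with every HVCN1 null heart above every WT heart and 3.45% with every one below). The median log2 fold change of the 9 neighbours was 0.01, beside -0.01 over all tested genes, and their median absolute value was 0.05, beside 0.12. By fitted value 5 were higher and 4 lower, and the sign of Tctn1, Pptc7, Vps29, Arpc3 and P2rx4 turned in at least 1 of the other settings tried.

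**Figure D1:**
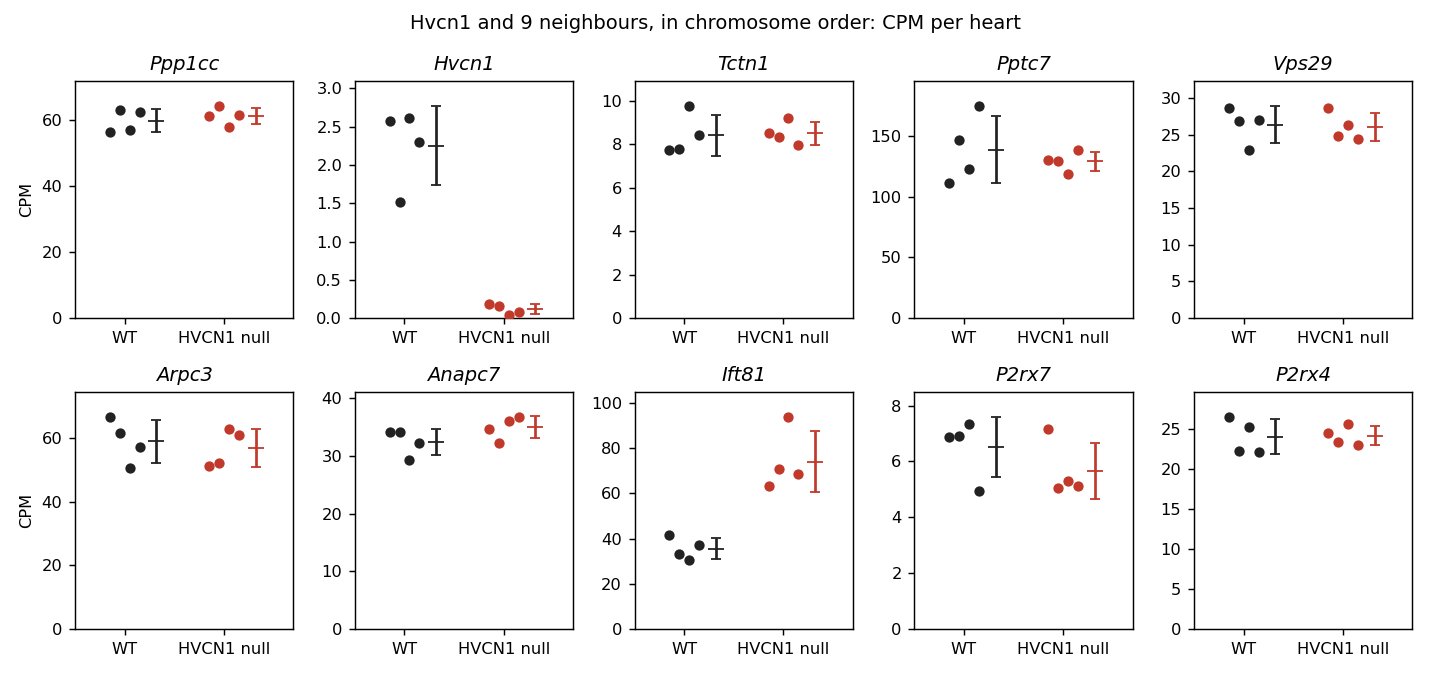
CPM of Hvcn1 and its 9 neighbours in each heart, in chromosome order, with a separate vertical axis from 0 for each gene. Points are hearts (black, WT hearts 5 to 8; red, HVCN1 null hearts 1 to 4, each from left to right) and bars are the mean ± SD (n = 4). The groups separate for Hvcn1, lower in HVCN1 null hearts, and for Ift81, higher in them, and overlap for the other 8 genes.

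Ift81 (ENSMUSG00000029469, 122550204 to 122614518, − strand) lies 307.9 kb from the Hvcn1 gene body. Its protein is part of the intraflagellar transport B complex, which moves cargo along the axoneme of cilia. Its level was 63.2, 70.6, 93.8 and 68.6 CPM in HVCN1 null hearts 1 to 4 and 41.5, 33.1, 30.6 and 37.0 CPM in WT hearts 5 to 8. HVCN1 null heart 3 was the highest, and the lowest HVCN1 null heart stood clear of the highest WT heart. The means were 74.0 ± 13.5 CPM and 35.5 ± 4.76 CPM (SD over 4 hearts per group), which is 2.09-fold higher in HVCN1 null hearts (95% interval 1.68 to 2.59). The log2 fold change was 1.06 (SE 0.14, edgeR quasi-likelihood adjusted p = 0.00553).

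The Ift81 values rest on 2105 to 2639 counts per HVCN1 null heart and 1070 to 1638 counts per WT heart, so counting error was small beside the spread between hearts. Without HVCN1 null heart 3 the log2 fold change was 0.93, and without WT heart 5, the highest WT heart, it was 1.15. Ift81 was a DEG in all 20 further fits, with an adjusted p of at most 0.0307, which was reached without WT heart 6. Among the 110 DEGs that were higher, Ift81 ranked 77 by fold change, and 44 among the 77 that are protein coding. In all, 285 tested genes had a larger absolute log2 fold change. No gene of the counts overlaps the annotated body of Ift81. Its intronic neighbours in the annotation, Gm43541 and the antisense Gm43301, share no exonic base with it and are not listed in the counts.

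The genes whose levels ran most like Ift81, named after their values were seen, were Cd209g, Gchfr, Gm7030, Gm10499 and Gm13443, with a Pearson r of 0.981 to 0.990 between log2 CPM values over 8 hearts. All 5 were higher in every HVCN1 null heart than in any WT heart, none lies on chromosome 5, and all except Cd209g were DEGs. As for Hvcn1, these correlations carry the split by genotype.

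Tctn1 (ENSMUSG00000038593, 122237848 to 122264460, − strand) is the gene closest to Hvcn1, since the ends of both genes overlap on opposite strands. Tectonic 1, its product, helps to keep the ciliary membrane apart from the rest of the cell membrane. The bodies share 4450 bases, and 1574 exonic bases are common, which is 44.2% of the exonic bases of Hvcn1 and 19.0% of those of Tctn1. Tctn1 was at 8.50, 8.35, 9.20 and 7.94 CPM in HVCN1 null hearts 1 to 4 and at 7.74, 7.76, 9.73 and 8.41 CPM in WT hearts 5 to 8. The highest heart and the lowest heart were both WT, and the groups overlapped. The means were 8.50 ± 0.523 CPM and 8.41 ± 0.935 CPM (SD over 4 hearts per group), with a log2 fold change of 0.01 (SE 0.11, 95% interval -0.24 to 0.26, edgeR quasi-likelihood adjusted p = 0.991). Per the methods of the study, library preparation included a strand selection, but the strand setting of the counting is not given in the sources used here. Whether reads from the shared exons were told apart between the genes is therefore not known. The pseudogene Gm15481, which lies within Tctn1, had 0 counts in every heart.

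Ppp1cc (ENSMUSG00000004455, 122158278 to 122175273, + strand) ends 31.5 kb before Hvcn1 begins and encodes the gamma form of the phosphatase 1 catalytic subunit. It measured 61.1, 64.0, 57.9 and 61.6 CPM in HVCN1 null hearts and 56.5, 62.9, 56.9 and 62.4 CPM in WT hearts, in the order of their numbers. All 8 hearts lay close together, with a fold change on the log2 scale of 0.04 (SE 0.08, 95% interval -0.14 to 0.21, edgeR quasi-likelihood adjusted p = 0.943).

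Pptc7 (ENSMUSG00000038582, 122284365 to 122324281, + strand), 42.1 kb on the other side, encodes a phosphatase of mitochondria and was the strongest neighbour. Its level was 130.3, 129.5, 118.7 and 138.3 CPM in HVCN1 null hearts. WT hearts 5, 6 and 8 had 111.2, 146.9 and 174.4 CPM, and WT heart 7 lay between the first pair. The WT hearts lay on both sides of the HVCN1 null hearts and varied more, with a coefficient of variation of 20.1% against 6.22%. The log2 fold change was -0.10 (95% interval -0.41 to 0.20, edgeR quasi-likelihood adjusted p = 0.889), and without WT heart 8, the highest, it was 0.03. The end of Pptc7 shares 1002 exonic bases, or 21.2% of its own, with Rad9b on the other strand. Rad9b, a relative of the DNA damage clamp subunit Rad9a, had 2.80 ± 0.137 and 2.57 ± 0.265 CPM (SD over 4 hearts per group, log2 fold change 0.13, edgeR quasi-likelihood adjusted p = 0.876).

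Vps29, Arpc3 and Anapc7 follow in this order on the + strand. Vps29 (ENSMUSG00000029462, 122354369 to 122364984), 112.1 kb from Hvcn1, starts 136 bases from Rad9b in the annotation and is the only neighbour with such a head-to-head partner within 1 kb. It ranged from 24.3 to 28.6 CPM in HVCN1 null hearts and from 22.9 to 28.7 CPM in WT hearts (log2 fold change -0.02, 95% interval -0.22 to 0.19, edgeR quasi-likelihood adjusted p = 0.980). Neither gene of the pair, whose shared stretch is printed above, was a DEG. Vps29 also shares 340 exonic bases with Fam216a, which had a log2 fold change of 0.04 (95% interval -0.28 to 0.37).

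Arpc3 (ENSMUSG00000029465, 122391878 to 122414184) encodes a subunit of the complex that starts new actin branches. It was at 51.3, 52.2, 62.7 and 61.1 CPM in HVCN1 null hearts and 66.6, 61.4, 50.7 and 57.2 CPM in WT hearts. Both groups held high and low hearts, and the log2 fold change was -0.05 (95% interval -0.30 to 0.19, edgeR quasi-likelihood adjusted p = 0.936). Gm42829, a transcript annotated inside an Arpc3 intron, had 92 counts over HVCN1 null hearts and 72 over WT hearts (log2 fold change 0.40, edgeR quasi-likelihood adjusted p = 0.701).

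Anapc7 (ENSMUSG00000029466, 122421693 to 122444912), a scaffold subunit of the anaphase-promoting complex, had the largest positive value among the neighbours that were not DEGs. It was at 34.8, 32.3, 36.1 and 36.7 CPM in HVCN1 null hearts and 34.2, 34.1, 29.4 and 32.3 CPM in WT hearts. HVCN1 null heart 2 lay within the WT range, so the groups overlapped, with a log2 fold change of 0.11 (SE 0.08, 95% interval -0.07 to 0.29, edgeR quasi-likelihood adjusted p = 0.758).

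The ATP-gated channels P2rx7 and P2rx4 lie beyond Ift81, and P2rx7 begins only 29.4 kb from it. P2rx7 (ENSMUSG00000029468, 122643911 to 122691432, + strand) is best known as the ATP sensor of macrophages. It was at 7.18, 5.06, 5.28 and 5.12 CPM in HVCN1 null hearts and 6.86, 6.89, 7.35 and 4.93 CPM in WT hearts. HVCN1 null heart 1 stood apart from the other HVCN1 null hearts, and all HVCN1 null hearts lay within the WT range. WT heart 8 stood apart from the other WT hearts and lay below every HVCN1 null heart. The log2 fold change was -0.20 (SE 0.17, 95% interval -0.57 to 0.17, edgeR quasi-likelihood adjusted p = 0.786), and -0.34 without HVCN1 null heart 1, with an adjusted p of 0.522 in the same edgeR test. The macrophage markers given above were lower by value as well, and their part in this value was not tested.

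P2rx4 (ENSMUSG00000029470, 122707544 to 122729738, + strand), 465 kb from Hvcn1 and the most distant of the 9, encodes the P2X subunit found also in lysosomes. Its level was 24.6, 23.4, 25.6 and 23.1 CPM in HVCN1 null hearts and 26.5, 22.3, 25.2 and 22.2 CPM in WT hearts. The HVCN1 null hearts all lay within the WT range, and the log2 fold change was 0.01 (95% interval -0.18 to 0.19, edgeR quasi-likelihood adjusted p = 0.996).

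For the 8 neighbours that were not DEGs, log2 fold changes lay between -0.20 and 0.11 and adjusted p between 0.758 and 0.996. Their 95% intervals reached from -0.57 to 0.29, so that a change to below 0.672-fold or above 1.22-fold lay outside every one of them. The widest was that of P2rx7 and the narrowest that of Ppp1cc. Within these bounds the intervals leave room for smaller changes in either direction.

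The 1 Mb window of chromosome 5 that holds all 10 genes, from Cux2 to Gm44574, was then read gene by gene. It touches 27 genes of the counts, of which 21 were tested, and 2 were DEGs, Hvcn1 and Ift81. The other 6 had at most 13 counts in any heart. The 19 that were not DEGs had log2 fold changes between -0.36 and 0.40, and the median absolute value over the 21 was 0.11. The groups did not overlap for 3 genes. The third was Rnf34, a ubiquitin ligase gene named after its values were seen, with 28.9 ± 2.31 CPM in HVCN1 null and 23.4 ± 1.90 CPM in WT hearts (SD over 4 hearts per group, log2 fold change 0.30, edgeR quasi-likelihood adjusted p = 0.192).

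Between Hvcn1 and Ift81 lie 9 tested genes, and none of them was a DEG. They include the listed neighbours Pptc7, Vps29, Arpc3 and Anapc7, given above. The log2 fold changes of the 9 ran from -0.22 to 0.40. The last before Ift81, with 48.0 kb between the gene bodies, is Atp2a2, which encodes the SERCA2 calcium pump of the sarcoplasmic reticulum. It was at 9313, 9991, 9416 and 11270 CPM in HVCN1 null hearts and 9710, 12260, 11890 and 12690 CPM in WT hearts. WT heart 5 lay among the HVCN1 null hearts and the other WT hearts lay above them all. The log2 fold change of Atp2a2 was -0.22 (SE 0.13, 95% interval -0.50 to 0.06, edgeR quasi-likelihood adjusted p = 0.607). Myl2, the ventricular myosin light chain gene on the far side of Ppp1cc, had 6573 ± 1031 and 6975 ± 1788 CPM (SD over 4 hearts per group) and a log2 fold change of -0.09 (95% interval -0.53 to 0.36). Per kilobase, Myl2 with 3577, Atp2a2 with 1913 and Pptc7 with 29.4 CPM in WT hearts were the strongest genes of the window.

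**Figure D2:**
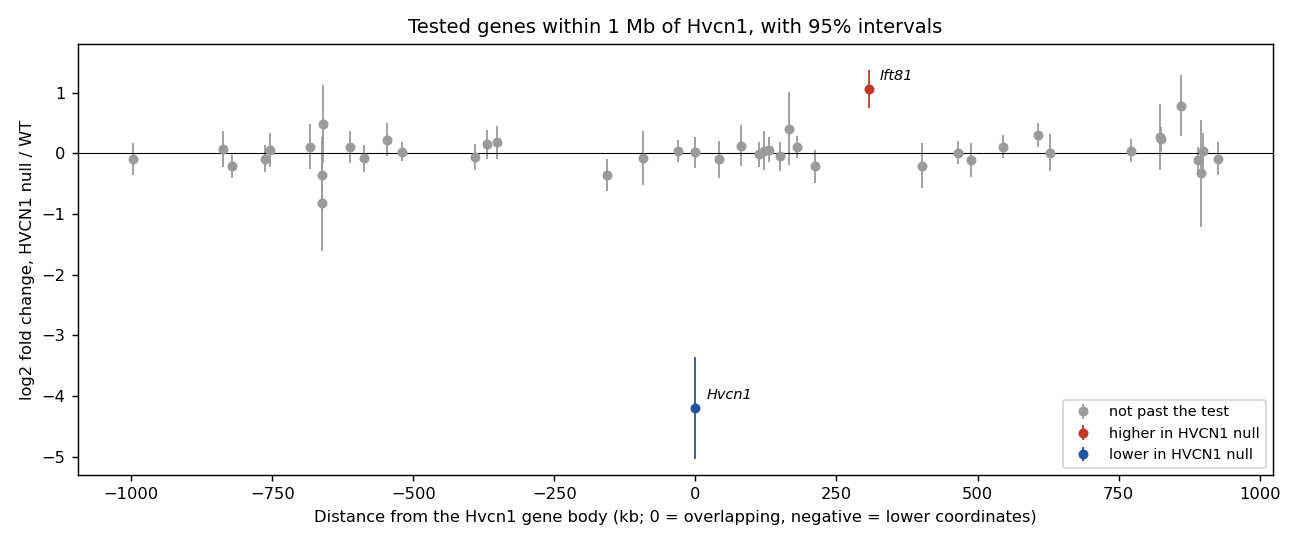
Log2 fold change (HVCN1 null over WT) of every tested gene within 1 Mb of Hvcn1, by its distance from the Hvcn1 gene body in kb. Points are genes, bars are 95% intervals from edgeR's fit, and colours mark DEGs. Hvcn1 at -4.20 and Ift81 at 1.06 are the only DEGs among 45 genes, and P2rx7 and Atp2a2 on either side of Ift81 are at -0.20 and -0.22.

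The windows around Hvcn1 were then widened. Leaving out Hvcn1, 1 of 20 tested genes within 0.5 Mb of its body was a DEG, 1 of 44 within 1 Mb (2.27%), 2 of 79 within 2 Mb (2.53%), 4 of 118 within 5 Mb (3.39%), 5 of 218 within 10 Mb (2.29%) and 7 of 430 within 20 Mb (1.63%). Each of these shares was above the 1.14% over all tested genes. The windows are nested, so all of them count Ift81, the only DEG within 1 Mb apart from Hvcn1. Over the whole of chromosome 5 it was 11 of 936 (1.18%), Hvcn1 included. Groups that did not overlap were found for 4 of the genes within 1 Mb (9.09%), for 9 within 2 Mb (11.4%) and for 32 within 20 Mb (7.44%), beside 7.06% over all tested genes. Within 2 Mb, 8 of these lay among the 44 genes toward higher coordinates (18.2%) and 1 among the 34 toward lower coordinates (2.94%). The median log2 fold change stayed between 0.00 and 0.03 on the log2 scale in windows of 0.5, 1, 2, 5 and 20 Mb, and was -0.02 within 10 Mb. No test was made of these shares. Toward lower coordinates 1 of 201 genes within 20 Mb was a DEG, and toward higher coordinates 6 of 228, with Tctn1, which overlaps Hvcn1, counted on neither side.

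Past Ift81 the next DEG was Diablo, 1.27 Mb from Hvcn1, after 27 tested genes that were not DEGs. Diablo, which encodes a mitochondrial protein that releases caspases from their inhibitors, was at 35.7 ± 1.20 CPM in HVCN1 null and 49.9 ± 5.09 CPM in WT hearts (SD over 4 hearts per group, log2 fold change -0.48, edgeR quasi-likelihood adjusted p = 0.0345). On the other side of Hvcn1 the nearest DEG was Nos1, the neuronal nitric oxide synthase gene, 4.25 Mb away and after 45 tested genes that were not DEGs. Nos1 had 1, 10, 4 and 5 counts in HVCN1 null hearts and 56, 36, 72 and 37 counts in WT hearts, which did not overlap (log2 fold change -3.22, SE 0.44, edgeR quasi-likelihood adjusted p = 0.00622).

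Slc15a4 and Pilra, also DEGs within 20 Mb, lie on the side of Ift81. Slc15a4, a lysosomal peptide transporter gene at 5.35 Mb, was at 15.3, 12.5, 13.6 and 14.5 CPM in HVCN1 null hearts and at 10.5, 9.43, 9.20 and 9.86 CPM in WT hearts. The groups did not overlap, and it was higher in the HVCN1 null group by 0.52 on the log2 scale (SE 0.10, edgeR quasi-likelihood adjusted p = 0.0376). Pilra at 15.6 Mb, which encodes an inhibitory receptor of myeloid cells, was lower, with a log2 fold change of -1.16 (SE 0.23, edgeR quasi-likelihood adjusted p = 0.0489).

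These DEGs did not hold equally well. Hvcn1, Ift81 and Nos1 were DEGs in all 20 further fits, Slc15a4 and Diablo in 13 each and Pilra in 7. When 1 heart was left out at a time, Slc15a4 and Diablo kept their call in 1 of 8 fits each and Pilra in 0, with adjusted p of up to 0.145, 0.121 and 0.139 (edgeR's quasi-likelihood test). The number of DEGs within 20 Mb, Hvcn1 apart, was 3 without HVCN1 null heart 1 or 3 or without WT heart 6 or 8, and 4 without HVCN1 null heart 4 or WT heart 5.

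**Figure D3:**
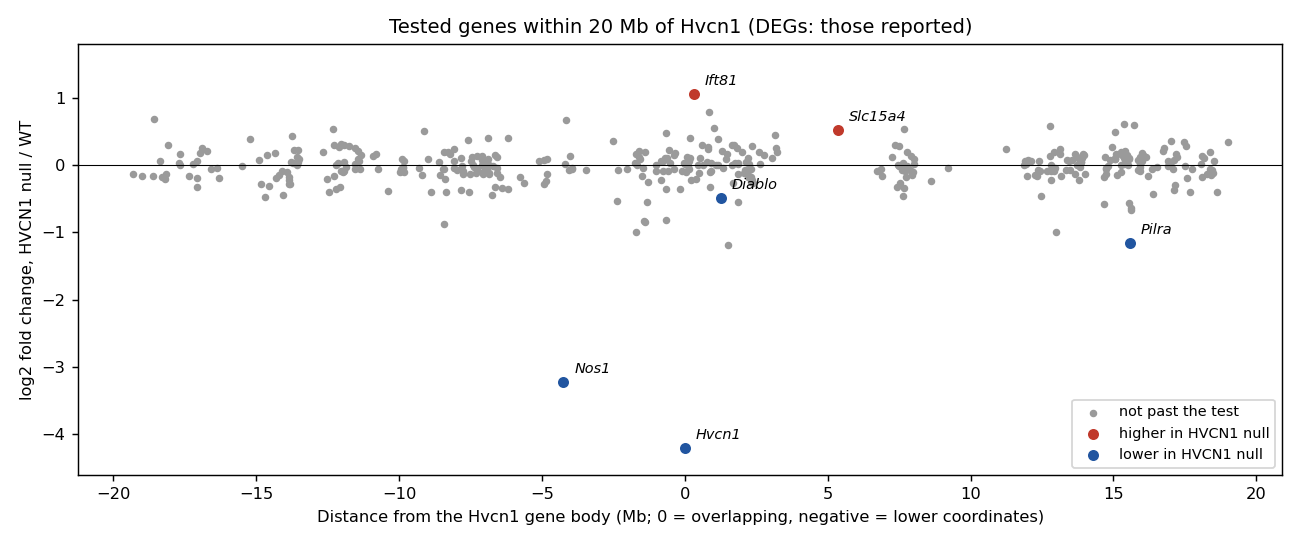
Log2 fold change (HVCN1 null over WT) of tested genes within 20 Mb of Hvcn1, by distance from the Hvcn1 gene body in Mb, leaving out DEGs that are not reported here. Points are genes, and those in colour with names are DEGs. Toward lower coordinates Nos1 at -3.22 is the only DEG, and toward higher coordinates Ift81 at 1.06 and Slc15a4 at 0.52 lie above 0 and Diablo at -0.48 and Pilra at -1.16 below it.

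Each neighbour was finally set beside genes that work with its product or belong to its family, most of which lie on other chromosomes. The intraflagellar transport B complex was read first, since Ift81 was its only DEG. The other 16 genes of the complex were all tested and none was a DEG. By value 4 of them were higher and 12 lower, with a median log2 fold change of -0.10 and a range of -0.67 to 0.16. Ift172, the strongest of these in CPM, had a log2 fold change of -0.01 (95% interval -0.21 to 0.19). Ift74, the protein that Ift81 pairs with to bind tubulin, was chosen after its values were seen and had 2.49 ± 0.340 and 2.91 ± 0.267 CPM (SD over 4 hearts per group), a log2 fold change of -0.23 (95% interval -0.60 to 0.14). The interval of Ift81, 0.75 to 1.37, lay above every one of the 16 intervals, whose highest bound was 0.50.

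The transition zone proteins around Tctn1, also of cilia, had no DEG among 12 other tested genes, with a median log2 fold change of -0.07. Cc2d2a, the strongest in CPM, had a log2 fold change of -0.04 (95% interval -0.32 to 0.23). The other catalytic subunits of phosphatase 1, Ppp1ca and Ppp1cb, had -0.02 (95% interval -0.29 to 0.25) and -0.20 (95% interval -0.45 to 0.04). Among 17 other tested phosphatases of the PP2C type, the family of Pptc7, the median was 0.01 and none was a DEG. Ppm1a, the strongest of them besides Pptc7, had -0.11 (95% interval -0.33 to 0.12).

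The retromer and its sorting nexins held no DEG among 7 other genes, with a median of -0.02, and Vps35 and Vps26a had log2 fold changes of -0.07 and 0.03. For the Arp2/3 complex the 8 other genes had a median of 0.02 and a range of -0.15 to 0.12, with Arpc2 at 0.09 and Actr3 at 0.08, and none was a DEG. The 15 other tested genes of the anaphase-promoting complex had a median of 0.00 and no DEG. Anapc1 had -0.04, and Anapc5, which lies in the same 1 Mb as Anapc7, had 0.11 (95% interval -0.09 to 0.30). Of the other P2X receptor genes 4 were tested and none was a DEG. P2rx5 had 14.6 ± 0.455 and 15.9 ± 0.520 CPM (SD over 4 hearts per group), groups that did not overlap, and a log2 fold change of -0.12 (edgeR quasi-likelihood adjusted p = 0.660). Groups also did not overlap for Tmem231 of the transition zone (-0.29), Snx5 of the retromer list (-0.24) and Anapc16 (0.22), named after their values were seen. The remaining lists held no such gene besides Ift81, and the share over all tested genes was 7.06%.

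**Figure D4:**
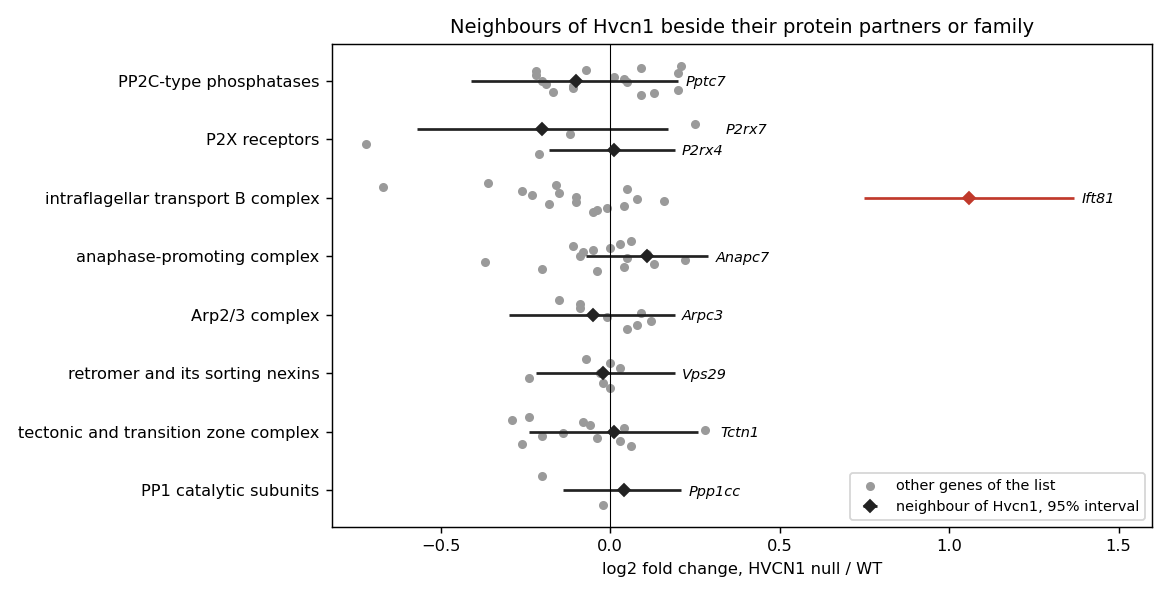
Log2 fold change (HVCN1 null over WT) of each neighbour of Hvcn1 (diamonds, with 95% intervals) and of the other tested genes of its complex or family (grey points). The Ift81 interval of 0.75 to 1.37 lies apart from the 16 other intraflagellar transport B genes, which run from -0.67 to 0.16, and the other 8 neighbours lie among or near their lists.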

How the data were processed

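Poly-A RNA of 8 mouse hearts was sequenced as paired reads. Per the labels and the methods of the study, the authors aligned reads with STAR and counted them per Ensembl gene with featureCounts. The deposited table holds these counts as they were, with no normalization. The submitters' processing notes name mm10 and GRCm38, whereas the methods name a human build. Versions, annotation release and strand setting are not given in the sources used here.

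Of 39056 identifiers, 38872 (99.5%) were found in GENCODE M21 (GRCm38), which gave symbols, positions and exons. The members and gene lists were chosen with earlier results of these data known. Genes kept by filterByExpr (14796) were tested with glmQLFTest of edgeR 4.0.16 in R 4.3.3, with genotype as the only term, TMM scaling, Benjamini-Hochberg adjusted p under 0.05 and a prior count of 0.125 for fold changes. CPM were computed with the TMM-scaled library sizes of the tested genes. Intervals are 95%. Figures used Python 3.11.15 and matplotlib 3.10.9. The test was tested on simulated data. No batch is given. No 2 libraries were identical.

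Genes named are the 10 members, DEGs of the 1 Mb window, the nearest DEG on each side, up to 10 DEGs within 20 Mb by absolute log2 fold change, overlapping and head-to-head genes, the 3 strongest genes of the window per kilobase, DEGs and the 2 genes of highest CPM in each partner list, and the 5 genes most correlated with Hvcn1. Some genes that this rule names are not reported here, though totals include them. Alternatives were RLE or no scaling, mitochondrial genes left out of library sizes, no filter or a filter of CPM over 1 in 4 or more hearts, the exact and the likelihood ratio test of edgeR, DESeq2 1.42.0, voom of limma 3.58.1, adjusted p under 0.01, an atrial covariate, a prior count of 0.5, gene bodies wholly inside the window, and each heart left out. A prior count of 2 was added after seeing the data.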

Additional observations from a re-analysis of the deposited data

Results flagged for a closer look

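P2rx7 in HVCN1 null heart 1, with 7.18 CPM, stood far from the other HVCN1 null hearts. Its gap to the nearest of them was 0.893 of the range of the group, above Dixon's 95% critical value for 4 samples. Among groups of this size about 5% pass that value by chance, and the 10 genes were looked at in both genotypes.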

How the results depend on the processing

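The number of neighbours of Hvcn1 that were DEGs, 1, the number in the 1 Mb window, 2, and the number in the partner lists, 1, did not move under any alternative. These numbers are not separate results, since Ift81 is counted in each of them, with Hvcn1 beside it in the window. Hvcn1 had log2 fold changes of -4.45 to -3.70 and Ift81 of 0.93 to 1.15 over 21 alternatives. The number of DEGs over all genes, 169, was 367 with edgeR's exact test, 376 with its likelihood ratio test, 466 with DESeq2, 56 at an adjusted p under 0.01, and 71 to 152 with 1 heart left out, with 71 without WT heart 6. Within 20 Mb of Hvcn1, where 7 genes were DEGs, the numbers were 11, 11, 15 and 3 for the same tests and threshold, and 3 to 5 with 1 heart left out. Signs turned only for neighbours near 0: Tctn1 to -0.01 and P2rx4 to -0.02 with the atrial covariate, Vps29 to 0.02 without scaling, and with 1 heart left out Tctn1 (-0.03 to 0.10), Pptc7 (-0.19 to 0.03), Vps29 (-0.08 to 0.03), Arpc3 (-0.12 to 0.02) and P2rx4 (-0.03 to 0.06). The cause was not tested. No paired analysis was possible because the hearts are numbered 1 to 4 in one genotype and 5 to 8 in the other. Depth limits Hvcn1 and Nos1 most, with a count of 1 for Hvcn1 in HVCN1 null heart 3 and for Nos1 in HVCN1 null heart 1.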

Other observations

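Erythroid and atrial markers differed between hearts more than any neighbour of Hvcn1. All 8 erythroid markers were lower by value in HVCN1 null hearts (median log2 fold change -1.11), and they summed to 1296 to 8427 CPM there and to 3037 to 15300 CPM in WT hearts. The 8 atrial markers summed to 850, 6217, 4938 and 816 CPM in HVCN1 null hearts 1 to 4 and to 4408, 679, 10950 and 628 CPM in WT hearts 5 to 8, so that 2 hearts of each genotype were high. The 7 atrial markers tested were all lower by value (median -0.42). Of the 7 endothelial markers 2 were higher and 5 lower by value (median -0.11), of the 9 cardiomyocyte markers 3 were higher and 6 lower (median -0.02), and of the 8 T cell markers 6 were higher and 2 lower (median 0.09). No marker of these lists was a DEG by edgeR's quasi-likelihood test. Their part in the values of the neighbours was not tested, beyond the fit with the atrial covariate, in which Ift81 stayed the only DEG among the 9 neighbours.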
